A study of Homo sapiens with 4 samples.

Results

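The genes described here are the metalloproteases of the ADAM and MMP families, the ADAMTS-like proteins and the TIMP inhibitors, in human U2OS cells given either control siRNA or siRNA against BRPF3. Members were chosen by gene symbol (ADAM, ADAMTS, ADAMTSL, MMP or TIMP followed by a number) and had to be protein coding. For a gene with several probe sets, the probe set was selected on its mean over the 4 arrays, the highest being kept. The rule gave 47 of 14884 named genes: 19 ADAM, 19 MMP, 5 ADAMTSL and 4 TIMP genes. The symbols ADAM6 and MMP23A also matched but belong to transcribed pseudogenes and were left out. No probe set is named here for any ADAMTS protease or for MMP2, MMP3, MMP7 and MMP9, which were not analysed here. The family was proposed with the difference of ADAM12 already known, so its values are given as a description and no test of it is used as a result. Only the counts in the last section include it.

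ADAM proteins are membrane-anchored enzymes with a metalloprotease and a disintegrin domain, and several of them cut the ectodomains of growth factors, receptors and adhesion molecules off the cell surface. MMPs are secreted or membrane-bound zinc proteases that cleave collagens, elastin and other matrix proteins, and are made as inactive proenzymes. TIMPs bind the active site of these enzymes and block it, with TIMP3 acting on ADAMs as well as MMPs. In bone and in bone tumours this system takes part in matrix turnover and invasion.

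U2OS is an established osteosarcoma line. Of the 4 arrays, 2 held RNA of cells treated with a scrambled control siRNA and 2 that of cells treated with BRPF3 siRNA, all transfected at 50 nM with a lipid reagent and taken after 48 hours. BRPF3 is a scaffold subunit of histone acetyltransferase complexes. The question was which transcripts differ in abundance when BRPF3 is depleted. BRPF3 has no named probe set here, so its depletion was not checked, and the labels give no siRNA sequences. Values are RMA values on the log2 scale, in which a step of 1 is a doubling, and a probe set value is not an abundance that can be set against another gene's. Over the tested genes, the log2 difference between replicate arrays had an SD of 0.17 in the control group and 0.20 in the BRPF3 siRNA group. The labels call the arrays biological replicates without saying how separate the cultures were, so p-values reflect only how these arrays vary, which may be technical, and their number limits the precision. The mesenchymal marker VIM read 10.35 to 10.52 and the osteoblast regulator RUNX2 6.31 to 6.56 over the 4 arrays. The endothelial marker PECAM1 read at most 3.58 and the monocyte marker CD14 at most 4.16, while the epithelial marker EPCAM read 7.90 to 8.22. Another endothelial marker, VWF, read 4.35 to 4.74, and the chondrocyte marker ACAN read 4.68 to 5.26. Of the other epithelial markers, KRT8 read 6.34 to 6.54, and KRT5 had a mean of 4.21 over the 4 arrays. Fewer cells making a transcript and less transcript per cell cannot be told apart in such samples.

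A gene was tested where its mean over the 4 arrays reached 4.59, the median of all probe sets. This left 29 of the 47 members: 13 of 19 ADAM, 9 of 19 MMP, 4 of 5 ADAMTSL and 3 of 4 TIMP genes. The 6 ADAM genes under the bound, ADAM2, ADAM18, ADAM20, ADAM21, ADAM29 and ADAM30, had means of 2.30 to 3.44, and most of them are known for expression in testis. All 6 membrane-type MMPs passed: MMP14, MMP15, MMP16 and MMP24, which span the membrane, and MMP17 and MMP25, which hold on by a lipid anchor. The interstitial collagenases MMP1, MMP8 and MMP13 were under the bound, with means of 3.32, 3.79 and 4.41. As values of different genes cannot be set against each other, the bound gives no ranking of abundance. MMP1 read 3.21 and 3.31 after control siRNA and 3.62 and 3.14 after BRPF3 siRNA, with overlapping groups. Just inside the bound lay ADAM28 with a mean of 4.62, and just outside lay ADAMTSL1 with 4.54 and MMP12 with 4.50.

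**Figure D1:**
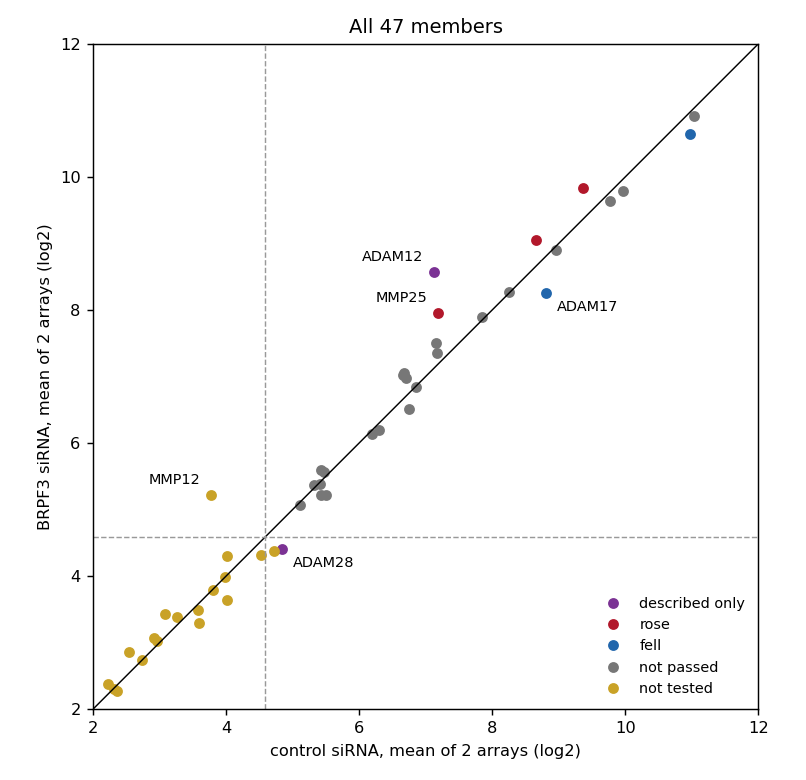
Mean log2 RMA value of each of the 47 members after control siRNA (horizontal axis) and BRPF3 siRNA (vertical axis), 2 arrays per group. The solid line marks equal values and the dashed lines the bound of 4.59; points are coloured by the test's outcome, with ADAM12 and ADAM28 as described only, and MMP12 (3.78 and 5.21) is the member under the bound after control siRNA and above it after BRPF3 siRNA.

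RefSeq promoter windows (GRCh38.p14, 250 bases before to 50 bases after the annotated start) matched 31 of the 47 members. The 16 without a window included MMP25, TIMP2, ADAM9, ADAM28, MMP1, MMP12 and MMP13. The windows found were used as follows. They were searched on both strands for the AP-1 site TGANTCA, the GC box GGGCGG and the TATA motif TATAAA. A GC box was present in 18 of the 19 windows of tested members and in 1 of the 12 windows of members under the bound, against 45.0% of all 35116 windows of this length. The TATA motif was present in 1 and 6 of these windows respectively (11.5% of all windows), and TGANTCA in 0 and 2 (7.71% of all windows). The number of CpG dinucleotides per window had a median of 32 (range 10 to 48) for tested members and 2.5 (range 0 to 18) for members under the bound. ADAM19 was the tested member without a GC box, and TIMP4 the member under the bound with one. The shares of all windows were not split by intensity, and a gene may have several windows there, against 1 per member. Whether tested genes outside the family differ likewise from dim ones was therefore not tested. These letter matches describe the windows and are no measure of binding. The windows of ADAM12 and TIMP3, which read higher after BRPF3 siRNA, and of ADAM17, which read lower, are shown, but no result uses them. Their relation to the differences was not tested. The window of MMP10 is also shown. It is 1 of the 2 windows with TGANTCA among the 12 of members under the bound, and so not typical of them. Each runs 5′ to 3′ along the gene, with matches to the 3 motifs in capitals.
ADAM12, chr10:126388428-126388727, minus strand: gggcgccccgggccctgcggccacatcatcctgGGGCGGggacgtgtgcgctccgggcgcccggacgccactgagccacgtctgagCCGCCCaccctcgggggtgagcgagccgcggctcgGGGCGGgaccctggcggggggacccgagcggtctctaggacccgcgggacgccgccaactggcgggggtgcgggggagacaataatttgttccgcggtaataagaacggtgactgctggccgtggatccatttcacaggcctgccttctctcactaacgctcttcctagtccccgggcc
TIMP3, chr22:32801455-32801754, plus strand: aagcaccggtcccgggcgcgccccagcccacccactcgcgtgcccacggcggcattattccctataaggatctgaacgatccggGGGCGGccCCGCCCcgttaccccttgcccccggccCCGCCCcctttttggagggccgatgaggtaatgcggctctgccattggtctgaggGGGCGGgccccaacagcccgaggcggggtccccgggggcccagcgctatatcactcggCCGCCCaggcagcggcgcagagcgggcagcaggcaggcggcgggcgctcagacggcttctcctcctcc
ADAM17, chr2:9555781-9556080, minus strand: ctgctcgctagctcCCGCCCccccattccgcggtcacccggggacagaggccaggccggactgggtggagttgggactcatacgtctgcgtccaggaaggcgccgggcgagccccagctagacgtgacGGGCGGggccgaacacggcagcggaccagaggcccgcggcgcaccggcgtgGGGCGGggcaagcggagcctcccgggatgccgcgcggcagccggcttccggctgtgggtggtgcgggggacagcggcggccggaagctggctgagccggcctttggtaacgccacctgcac
MMP10, chr11:102780579-102780878, minus strand: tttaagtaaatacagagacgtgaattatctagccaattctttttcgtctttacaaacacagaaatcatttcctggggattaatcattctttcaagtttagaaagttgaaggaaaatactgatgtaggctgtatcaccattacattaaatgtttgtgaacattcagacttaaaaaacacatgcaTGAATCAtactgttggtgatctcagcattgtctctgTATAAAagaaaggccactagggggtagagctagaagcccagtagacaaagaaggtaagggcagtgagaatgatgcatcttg
ADAM12 and ADAM17, whose readings moved in opposite directions, each hold 3 GC boxes and neither a TATA motif nor TGANTCA. TIMP3 holds 5 GC boxes. In MMP10, TGANTCA begins 67 bases and TATAAA 31 bases before the start, and MMP10 read 2.91 to 3.05 over the 4 arrays.

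Among the 27 tested members other than ADAM12 and ADAM28, 5 changed at a limma adjusted p under 0.05 in the fit of all 10696 tested genes: MMP25, TIMP2 and TIMP3 rose, and ADAM17 and ADAM9 fell. ADAM12 and ADAM28 are left out of the counts and only described, ADAM12 because its difference was known beforehand and ADAM28 because it passed the intensity filter through its control arrays alone. The share of 18.5% stands beside 15.8% called over all tested genes, 6.32% upwards and 9.44% downwards (676 risen and 1010 fallen, or 764 and 718 after quantile normalization). By class, 2 of 11 ADAM genes fell, and 1 of 9 MMP genes and 2 of 3 TIMP genes rose. Of 4 ADAMTSL genes 0 passed limma's test, with 1 at an unadjusted p under 0.05. Of all 10696 tested genes 3706 had an unadjusted p under 0.05 in limma.

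Leaving out control replicate 1 or 2 left no gene past limma's threshold, members included, and 1 array then stood for the control group. With control replicate 1 or, in turn, 2 left out, the differences themselves were -0.51 and -0.60 for ADAM17, 0.46 and 0.46 for TIMP2, and 0.58 and 0.94 for MMP25. They were 0.40 and 0.36 for TIMP3 and -0.33 and -0.33 for ADAM9. Of the 5 changed members ADAM17 passed without BRPF3 siRNA replicate 1. Without BRPF3 siRNA replicate 2 ADAM17 passed, as did MMP24.

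**Figure D2:**
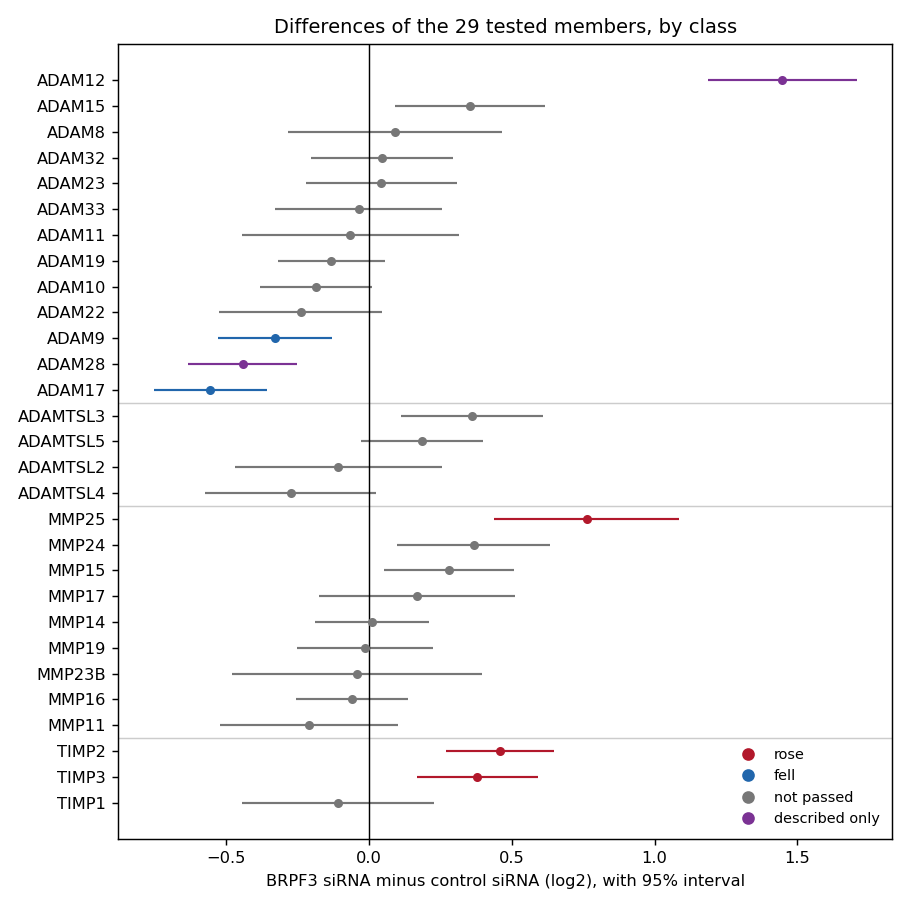
Log2 difference (BRPF3 siRNA minus control siRNA) of the 29 tested members with its 95% interval from limma, grouped by class and sorted within it. MMP25 lies at 0.76, and ADAM17 and ADAM9 lie at -0.56 and -0.33 with intervals under 0; ADAM12 and ADAM28 are drawn in their own colour, as described only.

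Among the ADAM genes, ADAM12, an enzyme of muscle, bone and placenta development that cleaves IGF-binding proteins and heparin-binding EGF, read 7.10 and 7.14 after control siRNA and 8.44 and 8.69 after BRPF3 siRNA. The groups lay far apart compared with the distance between arrays of a group, and the level was 2.73-fold higher (log2 difference 1.45 ± 0.11; errors of differences are moderated SEs from limma throughout, with n = 2 arrays in each group). ADAM12 is made as a long membrane-bound and a short secreted form, which the single probe set named for it does not separate here.

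ADAM17, the sheddase of TNF and of several EGF receptor ligands, read 8.85 and 8.76 after control siRNA and 8.25 on both arrays after BRPF3 siRNA. Both arrays of BRPF3 siRNA lay under both control arrays. ADAM17 fell by 0.56 ± 0.08 on the log2 scale (limma, adjusted p = 0.0160). Its annotated span overlaps IAH1, a lipid hydrolase gene, whose own probe set differed by 0.03 ± 0.13 (adjusted p = 0.900).

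ADAM10, the closest relative of ADAM17 and the main sheddase of Notch receptors, read 9.93 and 10.01 after control siRNA and 9.77 and 9.79 after BRPF3 siRNA. The groups did not overlap, but the difference of -0.19 ± 0.08 did not pass (adjusted p = 0.164), with a 95% interval of -0.38 to 0.01. ADAM10 passed in 1 of 11 alternative settings, the intensity trend (limma, adjusted p = 0.0435). Whether ADAM17 and ADAM10 differed in their response was not tested.

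ADAM9, a widely expressed sheddase, read 10.98 and 10.97 after control siRNA and 10.70 and 10.60 after BRPF3 siRNA. It fell by 0.33 ± 0.08 (limma, adjusted p = 0.0473), close to the threshold, and passed in 3 of 11 alternative settings. After quantile and after cyclic loess normalization the difference was -0.23 and -0.24 and did not pass (adjusted p = 0.109 and 0.107, within a range of 0.00179 to 0.199 over 11 alternative settings). The annotated span of ADAM9 overlaps TM2D2, a membrane protein gene, which fell by 0.66 ± 0.09 (adjusted p = 0.0153). The part of shared sequence in these differences was not tested.

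ADAM28, known from lymphocytes and some carcinomas, read 4.85 and 4.83 after control siRNA and 4.38 and 4.42 after BRPF3 siRNA. The difference was -0.44 ± 0.08, and its BRPF3 siRNA mean of 4.40 lay under the intensity bound. Since it passed the filter through its control arrays alone, this difference is a description and carries no test.

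ADAM15, an ADAM with an RGD motif that binds integrins, read 7.23 and 7.07 after control siRNA and 7.40 and 7.60 after BRPF3 siRNA. The groups were separated, and the difference of 0.35 ± 0.11 did not pass (adjusted p = 0.0759). ADAM15 passed in 2 of 11 alternative settings, the 75th percentile filter and the intensity trend (limma, adjusted p = 0.0290 and 0.0329). ADAM19, the sheddase of neuregulins, differed by -0.13 ± 0.08 (adjusted p = 0.276). ADAM11, ADAM22 and ADAM23, which lack protease activity and act in adhesion in the nervous system, differed by -0.07 ± 0.15, -0.24 ± 0.12 and 0.04 ± 0.11. Differences of ADAM8, ADAM32 and ADAM33 lay between -0.04 and 0.09, and in all 3 the groups overlapped.

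**Figure D3:**
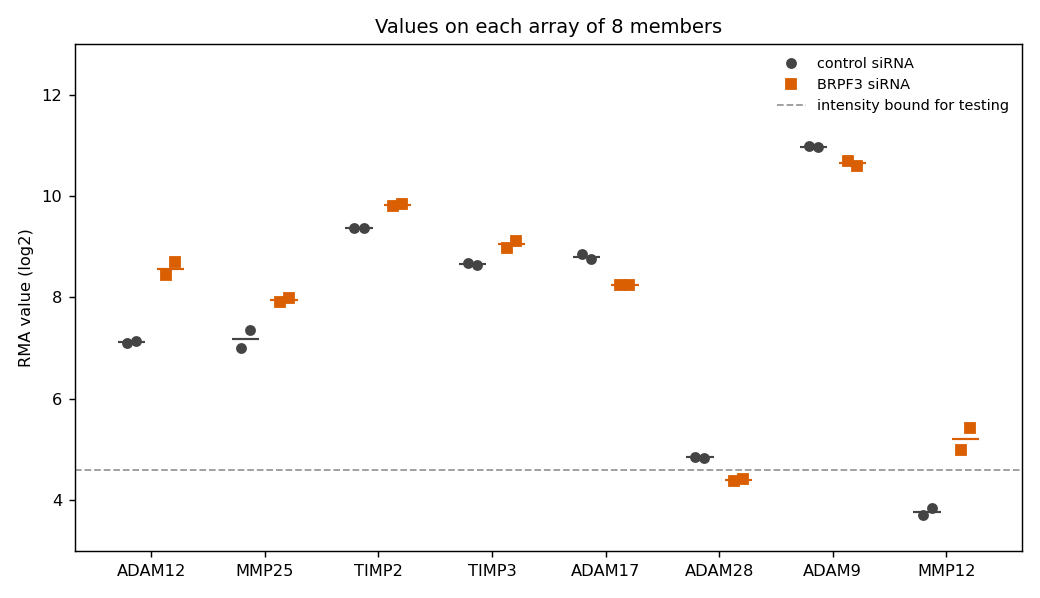
Log2 RMA value on each array for the 5 changed members and for ADAM12 and ADAM28, which are described only, and MMP12, which was under the bound; circles are control siRNA arrays, squares BRPF3 siRNA arrays, horizontal bars group means of 2 arrays, and the dashed line the bound of 4.59. In all 8 genes the groups do not overlap, and MMP12 lies under the bound after control siRNA and above it after BRPF3 siRNA.

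Among the MMP genes, MMP25, the lipid-anchored membrane-type MMP first known from leukocytes, read 7.01 and 7.37 after control siRNA and 7.92 and 7.98 after BRPF3 siRNA. The control arrays stood further apart than the BRPF3 siRNA arrays, and the groups did not overlap. MMP25 rose 1.70-fold (0.76 ± 0.13, adjusted p = 0.0225). A second probe set named for it read 6.61 and 6.48 against 7.21 and 7.09, a difference of 0.60, and another, dim one differed by 0.21. The gene's span overlaps the antisense RNA MMP25-AS1, and the strand of the probe sets is not given in the sources used here, so the share of each transcript is uncertain.

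MMP24, a membrane-type MMP of the nervous system, read 6.69 and 6.66 after control siRNA and 7.18 and 6.91 after BRPF3 siRNA. The difference of 0.37 ± 0.11 did not pass (adjusted p = 0.0734). Its other probe set read 6.08 and 5.98 against 6.81 and 6.96, a difference of 0.85. With the mean of both probe sets MMP24 passed at 0.61 ± 0.08 (adjusted p = 0.0142, the lowest of a range up to 0.250 over 11 alternative settings). The span of MMP24 overlaps MMP24OS, and which transcript each probe set reads is likewise uncertain.

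MMP14, the membrane-type collagenase that activates pro-MMP2, read 8.30 and 8.21 after control siRNA and 8.29 and 8.24 after BRPF3 siRNA. The groups overlapped and the difference was 0.01 ± 0.08 (adjusted p = 0.942), with a 95% interval of -0.19 to 0.21. Its relative MMP16 differed by -0.06 ± 0.08 (adjusted p = 0.632), MMP15 by 0.28 ± 0.09 (adjusted p = 0.0946) and MMP17 by 0.17 ± 0.14 (adjusted p = 0.433). MMP16 differed by 0.00111 after quantile and 0.01 after cyclic loess normalization, so no direction is given for it. The stromelysin-like MMP11 differed by -0.21 ± 0.13 (adjusted p = 0.290; -0.34 or -0.08 with control replicate 1 or 2, in this order, left out), MMP19 by -0.01 ± 0.10 and MMP23B by -0.04 ± 0.18. MMP23B is a near-identical copy of the pseudogene MMP23A, so its values are uncertain.

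MMP12, the macrophage elastase, had too low a mean over all arrays to be tested and was singled out after its values were seen. It read 3.70 and 3.85 after control siRNA and 4.998 and 5.43 after BRPF3 siRNA, so that the groups were separated and the control arrays lay under the bound. In the fit without an intensity filter it was higher by 1.44 ± 0.16 (limma, adjusted p = 0.0380), beside 1.45 ± 0.12 for ADAM12 in that fit. Leaving ADAM12 aside, MMP12 and ADAM17 were the members past the threshold in that fit, in which 2.75% of all 14884 genes were called. Differences of dim probe sets are compressed by background, so the size of this one is uncertain.

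MMP12 lies in a row of MMP genes on chromosome 11, in the RefSeq order MMP7, MMP20, MMP27, MMP8, MMP10, MMP1, MMP3, MMP12 and MMP13. All 7 of these that are named here were under the bound. MMP13, next to MMP12, read 4.80 and 4.24 after control siRNA and 4.33 and 4.29 after BRPF3 siRNA, and differed by -0.21 ± 0.19 (adjusted p = 0.540) without the filter. Without a test, MMP20 was higher by 0.29 and MMP27 by 0.15, both with separated groups, and MMP1, MMP8 and MMP10 had overlapping groups.

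Among the inhibitors, TIMP2, which blocks MMPs and also helps MMP14 to activate pro-MMP2, read 9.37 on both control arrays and 9.81 and 9.85 after BRPF3 siRNA. The arrays of a group were almost equal, and TIMP2 rose 1.37-fold (0.46 ± 0.08, limma, adjusted p = 0.0210). TIMP2 passed in 6 of 11 alternative settings. Its span overlaps CEP295NL, whose probe set differed by 0.14 ± 0.11 (adjusted p = 0.422). TIMP3, the matrix-bound inhibitor that also acts on ADAM17, read 8.68 and 8.65 after control siRNA and 8.98 and 9.11 after BRPF3 siRNA. The groups were separated, and TIMP3 rose 1.30-fold (0.38 ± 0.09, limma, adjusted p = 0.0390). It passed in 4 of 11 alternative settings. Averaged with its dim second probe set the difference was 0.39 ± 0.13 and did not pass (adjusted p = 0.103, within a range of 0.00480 to 0.178 over 11 alternative settings). TIMP3 lies within SYN3, whose probe set differed by -0.25 ± 0.20 (adjusted p = 0.423).

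TIMP1, an inhibitor of many MMPs that can also stimulate cell growth, read 11.21 and 10.84 after control siRNA and 10.97 and 10.87 after BRPF3 siRNA. The BRPF3 siRNA arrays lay between the control arrays, and the difference of -0.11 ± 0.14 did not pass (adjusted p = 0.614). Without control replicate 1 it was 0.08, so no direction is given. TIMP4 read 3.99 and 3.96 against 4.25 and 3.71 and was not tested.

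The ADAMTS-like proteins share the ancillary domains of ADAMTS proteases, lack the protease domain and bind fibrillin microfibrils. ADAMTSL3 read 6.55 and 6.78 after control siRNA and 7.02 and 7.03 after BRPF3 siRNA. Its groups were separated, and its difference of 0.36 ± 0.10 did not pass (adjusted p = 0.0644). ADAMTSL3 passed in 2 of 11 alternative settings, the 75th percentile filter and the intensity trend (limma, adjusted p = 0.02286 and 0.03415). ADAMTSL5 differed by 0.19 ± 0.09 (adjusted p = 0.191), ADAMTSL4 by -0.28 ± 0.12 (adjusted p = 0.172; -0.14 or -0.41 with control replicate 1 or 2, in this order, left out) and ADAMTSL2 by -0.11 ± 0.15 (adjusted p = 0.644). The difference of ADAMTSL2 was 0.09 without BRPF3 siRNA replicate 2, so no direction is given for it.

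**Figure D4:**
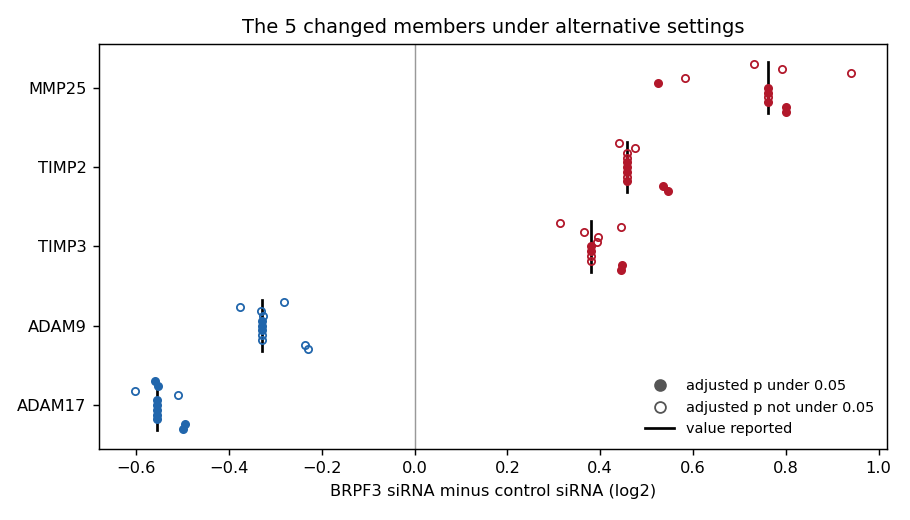
Log2 difference of the 5 changed members under each alternative setting (circles; filled where the adjusted p was under 0.05, open otherwise), with the reported value as a black line. ADAM17 lies between -0.60 and -0.49 and passed in 9 of 11 settings, and MMP25 lies between 0.53 and 0.94 and passed in 6 of 11.

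A list of genes that work with metalloproteases held 94 genes, of which 75 were named and 67 tested. Of these 8 rose and 2 fell, which is 14.9% against the 15.8% of all tested genes. Without control replicate 1 or 2, a lone array stood for the control group, and only differences are given here. The differences of IL6R were then 0.98 and 0.79 and those of FBN1 0.61 and 0.70. Without BRPF3 siRNA replicate 1 or 2 these differences were 0.86 and 0.91 for IL6R and 0.68 and 0.63 for FBN1. IL6R and FBN1 were the 2 that passed in the fit without an intensity filter.

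Some metalloprotease precursors are activated by proprotein convertases. Of 5 tested convertases 1 rose, PCSK5, by 0.41 ± 0.08 (adjusted p = 0.0310), while FURIN differed by 0.04 ± 0.09 (adjusted p = 0.766). Among 8 tested partners of the sheddases, TSPAN14, a tetraspanin that carries ADAM10 to the cell surface, read 8.82 on both control arrays and 9.21 and 9.20 after BRPF3 siRNA. It rose by 0.38 ± 0.08 (adjusted p = 0.0302) and was the 1 of 8 that changed. RHBDF2, the iRhom that escorts ADAM17, differed by 0.25 ± 0.10 (adjusted p = 0.130). Of 3 other inhibitors and inducers A2M, a protease-trapping inhibitor, fell by 0.56 ± 0.10 (adjusted p = 0.0249), and the membrane-anchored MMP inhibitor RECK differed by 0.33 ± 0.16 (adjusted p = 0.205). None of 5 invadopodia genes passed limma's test, with 1 at an unadjusted p under 0.05, beside 3706 of all 10696 genes.

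Among what these enzymes cut, 3 of 8 tested shed receptors and cytokines rose. IL6R, the interleukin-6 receptor whose ectodomain ADAM17 and ADAM10 release, read 6.76 and 6.58 after control siRNA and 7.58 and 7.54 after BRPF3 siRNA. The groups were clearly apart, and IL6R rose 1.85-fold (0.88 ± 0.09, adjusted p = 0.00985). The heparan sulfate proteoglycans SDC1 (0.54 ± 0.09, adjusted p = 0.0220) and SDC3 (0.52 ± 0.09, adjusted p = 0.0212) rose as well. Among 4 tested EGF receptor ligands EREG, epiregulin, fell and EGF rose. EREG read 6.44 and 6.76 after control siRNA and 5.38 and 5.95 after BRPF3 siRNA. The spread within each group was wide, and EREG fell by 0.93 ± 0.20 (adjusted p = 0.0366). EGF rose by 0.34 ± 0.08 (limma, adjusted p = 0.0433) and passed in 3 of the 10 alternative settings that tested it. HBEGF, a substrate of ADAM12 and ADAM17, differed by -0.25 ± 0.10 (limma, adjusted p = 0.136). Of 8 tested Notch receptors and ligands 0 passed limma's test, with 2 at an unadjusted p under 0.05, beside 3706 of all 10696 genes.

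In the matrix, FBN1, the fibrillin that ADAMTS-like proteins bind, read 6.30 and 6.38 after control siRNA and 6.97 and 7.02 after BRPF3 siRNA. It rose 1.58-fold (0.66 ± 0.08, adjusted p = 0.0127), as the 1 of 8 tested lecticans and matrix glycoproteins that changed. Its relative FBN2 differed by 0.52 ± 0.15 (adjusted p = 0.0646). Of 6 tested astacins and pappalysins with their helpers, PCOLCE2, an enhancer of procollagen cleavage, rose by 0.44 ± 0.08 (adjusted p = 0.0249), and the protease BMP1 itself differed by 0.16 ± 0.12 (adjusted p = 0.387). Of 12 tested AP-1 and ETS factors, known regulators of MMP promoters, 0 passed limma's test and 2 had an unadjusted p under 0.05. Of all 10696 tested genes 3706 had such a p. JUND came nearest (0.43 ± 0.11, adjusted p = 0.0506). FOSB read 7.73 and 6.22 on the control arrays, a wider gap than between the groups.

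**Figure D5:**
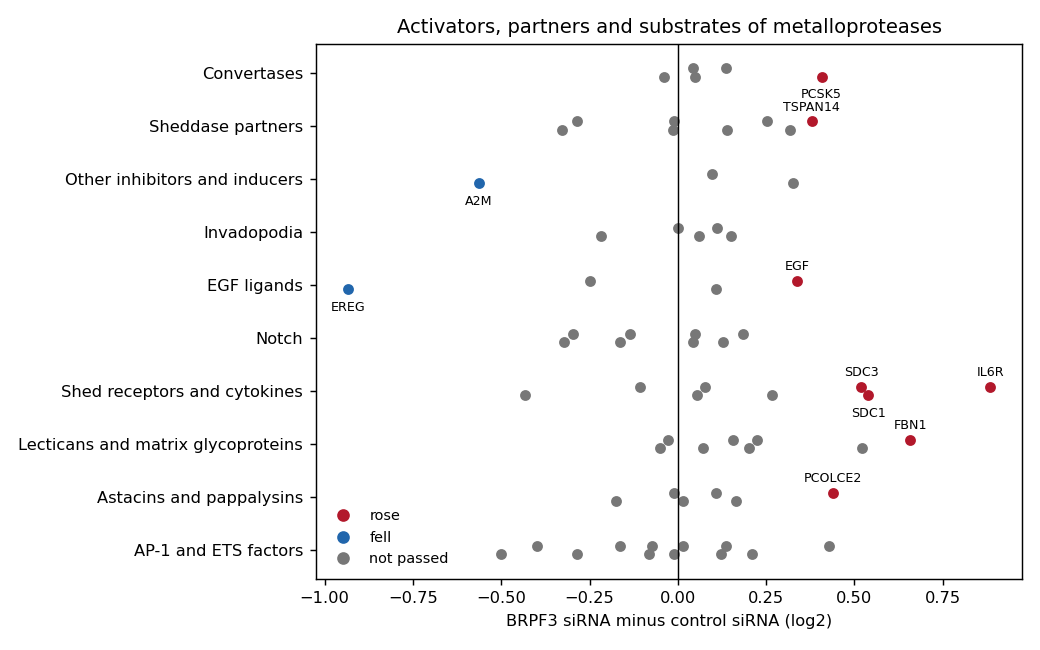
Log2 difference (BRPF3 siRNA minus control siRNA) of the 67 tested partner genes by role, each point a gene, coloured by the outcome of the test. The 10 changed genes are named; IL6R lies furthest up at 0.88 and EREG furthest down at -0.93.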

How the data were processed

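RNA of 4 U2OS samples was measured on Affymetrix whole-transcript arrays. The deposited log2 values were made by the authors with RMA (background correction, normalization between arrays, summary of probes), per the submitters' processing notes; no source used here gives its version or settings. They were used as deposited. A platform annotation named 16098 of 53617 probe sets, each for 1 gene; a RefSeq table (GRCh38.p14) gave gene classes.

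BRPF3 siRNA was set against control siRNA in limma 3.58.1 under R 4.3.3 (lmFit and eBayes, two-sided, with group alone) over the 10696 genes with a mean of at least 4.59, with Benjamini-Hochberg adjustment over all of them. The fit had 2 residual and 3.81 prior degrees of freedom. An exact permutation test of 2 against 2 arrays cannot give a p under 0.333. The procedure was tested on simulated data.

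Members, lists, tests and alternatives were chosen with earlier results of these data known. Differences of ADAM12 and ADAM28 are described without a test. Named are ADAM12, all changed members and partners, the 3 highest in value and the 2 highest and 2 lowest by moderated t of each class, and 12 genes fixed by name, of which MMP2 and ADAMTS1 are not analysed here. Other named genes were chosen after their values were seen. Alternatives were quantile and cyclic loess normalization, the replicate number as a block, no filter, a 75th percentile filter, an intensity trend, averaging a gene's probe sets, and leaving out each array.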

Additional observations from a re-analysis of the deposited data

How the results depend on the processing

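The counts of members here are out of 29 and include ADAM12 and ADAM28, which are otherwise only described. None of the 7 members past the threshold or 10 changed partner genes reversed its direction in the settings run. Most of these settings could not have shown a reversal. A block, another filter or an intensity trend leaves the difference as it is. The groups of all these genes were separated, so leaving out an array cannot turn the sign. Without an intensity filter, where more and dimmer genes are tested, 409 of all genes, 3 members and 2 partner genes passed, against 1686, 7 and 10 with it. With an intensity trend 2645 genes, 10 members and 12 partner genes passed. With 1 array left out, between 0 and 791 genes, 0 and 3 members and 0 and 4 partner genes passed; a group's lone array is then assumed to vary like the other group. The cause of these shifts was not tested beyond that. With the replicate number as a block, 1604 genes, 5 members and 12 partner genes passed. ADAM9 (adjusted p = 0.0568), TIMP3 (0.0504) and EGF (0.0570) did not pass there. Deviations of same-numbered arrays from their group means correlated at 0.14, and with 2 arrays per group this is no sign that the numbers pair the cultures. Of the 18 untested members, 5 had an unadjusted p under 0.05 in the fit without an intensity filter. In that fit 3842 of all 14884 genes had such a p.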
